A study of Macaca nemestrina with 15 samples.

Results

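The genes described here encode the proteins of the mitochondrial ribosome and were chosen by name alone, as every feature of the count table whose symbol begins with MRPL or MRPS followed by a digit. They number 63 of the 28865 features in the table, 41 of the large subunit and 22 of the small subunit, with MRPS18A and MRPS30 counted as large subunit proteins because that is where they sit in the assembled particle. RNA-seq was performed on peripheral blood mononuclear cells (PBMCs) of 5 female pig-tailed macaques (*Macaca nemestrina*), each sampled before treatment, at week 12 and at week 18, which gave 15 libraries. The animals received oral islatravir (ISL), a nucleoside reverse transcriptase translocation inhibitor, at 30 mg/kg by gavage every week for 12 weeks. The study's methods place the week 12 samples at the end of treatment and the week 18 samples 6 weeks after it. No untreated animals were sampled, so ISL and the passage of time cannot be told apart.

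Mitochondria keep a small genome of their own, whose protein genes encode core subunits of the respiratory chain and of ATP synthase, and the mitochondrial ribosome is the machine that translates them. Its RNAs come from mitochondrial DNA, but all of its proteins are encoded in the nucleus, made in the cytosol and imported. Some of these proteins have counterparts in the bacterial ribosome and others are found only in mitochondria. Nucleoside analogs can impair mitochondria through the polymerase that copies mitochondrial DNA, which makes the nuclear genes of mitochondrial translation a set of interest in cells exposed to such a drug. No feature of the table carries any of 26 symbols of mitochondrial DNA-encoded proteins looked for, so the mitochondrial transcripts themselves were not analysed here.

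Total counts ranged from 5610597 to 10379572 per library, and between 15717 and 16556 features were detected. Levels are given as CPM, the count of a gene relative to the library size after TMM normalization, which corrects library sizes for a few abundant genes. All T-cell, B-cell and NK-cell markers looked for had counts, and so did 8 of 9 monocyte markers, as PBMCs should. The remaining monocyte marker was absent from the table. A date in each library name placed the second sample of an animal 56 or 57 days and the third 84 days after the first, so that the later samples were 27 or 28 days apart. These intervals are shorter than the week labels, and the study's own passages differ on the week of the last sample. The labels are used here as given. The same dates stood on the libraries of 3 animals (Z15303, Z15339 and Z15408), while Z13076 and Z15228 each had dates of their own. The pre-treatment library of Z15408 had the lowest summed level of these genes and is described with the results it bears on.

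All 63 genes had counts in every library and passed the filter on low counts, which 12880 features passed. Mean levels over the 15 libraries ran from 4.27 CPM for MRPL54 to 172 CPM for MRPL37, with a median of 41.9 CPM. These levels are not divided by transcript length and so do not rank the genes against each other. After MRPL54, whose lowest count was 9, the lowest mean was 13.8 CPM for MRPL19. From library to library the genes varied less than the features tested as a whole. The SD between animal means had a median of 0.15 on the log2 scale over the 63 genes, beside 0.24 over all features tested. The SD within animals had a median of 0.19, beside 0.25. These SDs hold counting noise, which grows as counts fall, and the features were not matched to the genes by level. The ratio of the highest to the lowest library was smallest for MRPL9, at 1.30, and largest for MRPL54, at 7.46. These names were chosen after their values were seen.

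Before treatment, the summed level of the 63 genes was 3210.3, 3441, 3138, 3023 and 2455 CPM in Z13076, Z15228, Z15303, Z15339 and Z15408. In the same order it was 2989.7, 3273, 3561, 3157 and 3258 CPM at week 12 and 3024, 3339, 3513, 3254 and 3297 CPM at week 18. The mean was 3054 ± 368 CPM (SD, n = 5) before treatment, 3248 ± 208 CPM at week 12 and 3285 ± 176 CPM at week 18. The groups overlapped throughout. The sum was higher at week 12 than before treatment in the 3 animals with shared dates and lower in the 2 with dates of their own, and week 18 repeated that division. The lowest sum, 2455 CPM, belonged to the pre-treatment library of Z15408, and the next lowest, 2989.7 CPM, to Z13076 at week 12. The small subunit took between 37.2% and 40.2% of the sum in every library, with means of 38.6% ± 1.09, 38.6% ± 0.62 and 38.2% ± 1.08 (SD, n = 5) at the 3 time points, so the proportion of small to large subunit transcripts stayed within a narrow band while the sum moved.

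**Figure D1:**
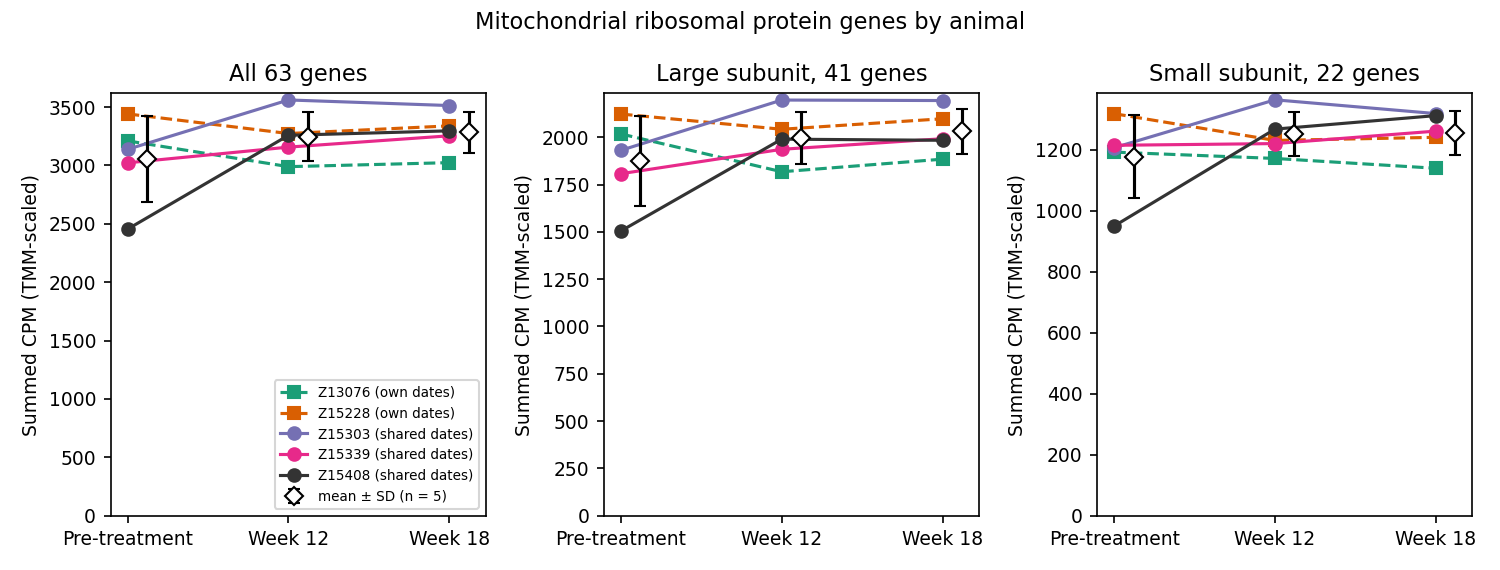
Summed CPM of all 63 genes, of the 41 large subunit genes and of the 22 small subunit genes (y axes, from 0) at the 3 time points (x axes), with a line for each animal. Solid lines with circles are the 3 animals whose library names share dates, dashed lines with squares are the other 2, and open diamonds are means with SD (n = 5). The pre-treatment library of Z15408, at 2455 CPM for all 63 genes, lies below every other point.

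The first comparison asked whether these genes changed during ISL treatment, at week 12 against pre-treatment. By edgeR's quasi-likelihood test, fitted with the animal as a block, none of the 63 had an adjusted p under 0.05, where 1 of 12880 features did (0.00776%). The smallest adjusted p among the genes was 0.849. At an unadjusted p under 0.05 there were 3 genes, or 4.76% of the 63, beside 4.69% of all features, so the share of genes at that level was close to the background. All 3 were higher at week 12, a direction that 1.44% of all features showed at that level, and none was lower, beside 3.25%. The 2 groups of 5 libraries overlapped for every one of the 63 genes, while 0.116% of all features were higher and 0.163% lower without overlap. DESeq2's Wald test and limma-voom, both paired by animal, also passed none of the 63 after adjustment. Each gave 3 with an unadjusted p under 0.05, beside 4.61% of all features by limma-voom. The share by DESeq2 was 2.96%, but DESeq2 was run without the filter on low counts. Its share also covers low-count features that the edgeR and limma-voom shares leave out, so it is not set against theirs. After adjustment DESeq2 passed 23 features of the whole table and limma-voom 1 feature. Without the animal as a block, 1 gene, MRPS34, was under 0.05 unadjusted, beside 1.61% of all features.

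The genes nevertheless leaned to one side. The fitted log2 fold change was positive for 51 of the 63 genes, or 81.0%, beside 50.2% of all features. The lean was not particular to these genes. It was positive for 37 of 45 cytosolic ribosomal protein genes and 38 of 51 nuclear-encoded respiratory chain genes as well, 2 sets described below. The median log2 fold change was 0.08 over the 63 genes, 0.07 in the small subunit and 0.10 in the large subunit, beside 0.00 over all features. Without Z15408 the median was 0.01, with 37 of the 63 genes positive, and in the 2 animals with dates of their own alone it was −0.11. Single genes ranged from −0.23 to 0.30. The intervals were narrow enough to bound the change. For 61 of the 63 genes the 95% interval lay within a 1.5-fold change in either direction, beside 66.8% of all features (the exceptions were MRPL21 and MRPL54), and for all 63 it lay within a 2-fold change, beside 88.4%.

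MRPS34, a mitochondria-specific small subunit protein needed for a stable small subunit, had the smallest p of those that were higher. Its level before treatment was 89.6, 99.6, 96.9, 96.2 and 71.3 CPM in Z13076, Z15228, Z15303, Z15339 and Z15408, and in the same order 99.2, 103, 134, 116 and 100.1 CPM at week 12. It was higher in 5 of 5 animals, by 0.05 to 0.49 on the log2 scale, although the groups overlapped. It was the only one of the 63 genes with that pattern (1.59%, beside 2.23% of all features). Its log2 fold change was 0.28 (SE 0.11), with an unadjusted p of 0.0182 and an adjusted p of 0.849. MRPS18A, one of 3 mammalian relatives of bacterial S18, followed with 63.5 ± 10.6 CPM before treatment and 76.2 ± 9.15 CPM at week 12 (SD, n = 5). The log2 fold change was 0.26 (SE 0.11, unadjusted p = 0.0311, adjusted p = 0.93). It was higher in 4 of 5 animals and slightly lower in Z13076. MRPL27, the counterpart of bacterial L27, which reaches into the peptidyl transferase centre, was at 52.3, 50.1, 49.5, 42.4 and 47.0 CPM before treatment and 49.4, 63.6, 63.7, 48.4 and 62.9 CPM at week 12 in the same order of animals. It was higher in every animal but Z13076, with a log2 fold change of 0.25 (SE 0.10, unadjusted p = 0.0317, adjusted p = 0.93). MRPL17, a protein near the exit of the peptide tunnel, came next with 0.20 (SE 0.11, unadjusted p = 0.077, adjusted p = 0.982).

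The genes that leaned downward were all short of an unadjusted p of 0.05. MRPL13, the counterpart of bacterial L13, was at 35.6, 36.1, 33.5, 31.5 and 25.0 CPM before treatment and 28.3, 28.8, 29.2, 25.2 and 26.1 CPM at week 12. It was lower in 4 animals and slightly higher in Z15408, with a log2 fold change of −0.23 (SE 0.12, unadjusted p = 0.0733, adjusted p = 0.982). MRPL42, a mitochondria-specific large subunit protein, had a log2 fold change of −0.21 (SE 0.11, unadjusted p = 0.0846, adjusted p = 0.982), and its largest difference was in Z15408, at −0.57. MRPL16, the counterpart of bacterial L16 beside the peptidyl transferase centre, was at 60.3, 62.7, 69.2, 58.3 and 56.6 CPM before treatment and 56.7, 57.0, 61.6, 52.9 and 54.1 CPM at week 12. It was lower in 5 of 5 animals, as 3.45% of all features were, but by only 0.07 to 0.17 on the log2 scale, and its fitted log2 fold change was −0.12 (SE 0.10, unadjusted p = 0.225, adjusted p = 0.982). MRPS10, of the head of the small subunit, was at −0.07 (SE 0.11, unadjusted p = 0.539, adjusted p = 0.982).

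The second comparison, week 18 against pre-treatment, shares its pre-treatment libraries with the first, so the values of both rest in part on the same samples. Again none of the 63 genes had an adjusted p under 0.05 by edgeR, where 1 of 12880 features did (0.00776%), and the smallest adjusted p was 0.695. At an unadjusted p under 0.05 there were 4 genes, or 6.35%, beside 5.85% of all features. All 4 were higher at week 18, which 2.07% of all features were at that level, and none was lower, beside 3.78%. No gene separated the groups without overlap, as 0.132% of all features did upward and 0.202% downward. DESeq2's Wald test gave 4 with an unadjusted p under 0.05 (6.35%) and limma-voom 5 (7.94%, beside 5.67% of all features). By DESeq2 the share was 3.76% of 20732 features, tested without the filter on low counts, so it is not like the other shares. Neither passed any of the 63 after adjustment, where DESeq2 passed 50 features of the whole table and limma-voom 1 feature. The fit without the block gave 1, MRPL27, beside 1.69% of all features. The fitted log2 fold change was positive for 54 of the 63 genes, or 85.7%, beside 49% of all features. It was positive for 35 of 45 cytosolic ribosomal protein genes and 41 of 51 respiratory chain genes. The median was 0.11 over the 63, 0.10 in the small subunit and 0.13 in the large. Without Z15408 the median was 0.04, with 45 genes positive, and in the 2 animals with dates of their own alone it was −0.08. The 95% interval lay within a 1.5-fold change for 61 genes, beside 65.7% of all features (MRPL54 and MRPL55 did not), and within a 2-fold change for all 63, beside 88%. These intervals use the same pooled spread and can also be too narrow, since the SD of the animal medians was 0.19.

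MRPL27 had the smallest p at week 18. Its level was 50.8, 70.2, 65.6, 53.2 and 57.6 CPM in Z13076, Z15228, Z15303, Z15339 and Z15408, against the pre-treatment values given above. It was again higher in every animal but Z13076, with a log2 fold change of 0.29 (SE 0.10, unadjusted p = 0.0127, adjusted p = 0.695). MRPL17 was at 46.6, 42.0, 35.7, 36.3 and 28.5 CPM before treatment and 47.4, 45.1, 44.3, 47.6 and 40.6 CPM at week 18. It was higher in 5 of 5 animals, by 0.02 in Z13076 and by up to 0.51 in Z15408, and the groups overlapped. Its log2 fold change was 0.26 (SE 0.11, unadjusted p = 0.0272, adjusted p = 0.824). Altogether 3 genes were higher in 5 of 5 animals, MRPL17, MRPL2 and MRPS9, or 4.76% beside 3.04% of all features. MRPS34 had a log2 fold change of 0.25 (SE 0.11, unadjusted p = 0.0346, adjusted p = 0.825) and MRPL46, of the central protuberance of the large subunit, one of 0.23 (SE 0.11, unadjusted p = 0.0455, adjusted p = 0.843). None of the genes was lower in 5 of 5 animals, beside 3.49% of all features. The most negative values were small beside their errors, −0.12 (SE 0.15) for MRPL19, −0.10 (SE 0.14) for MRPS22, −0.09 (SE 0.11) for MRPL42 and −0.08 (SE 0.13) for MRPL3, with unadjusted p-values of 0.445, 0.506, 0.42 and 0.545. MRPS22 is a mitochondria-specific small subunit protein, MRPL19 lies at the interface of the subunits and MRPL3 is a core protein of the large subunit.

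The third comparison, week 18 against week 12, set the sample after dosing against the one at its end, by the study's account. By the dates in the library names these samples were 27 or 28 days apart. None of the 63 genes passed in edgeR's quasi-likelihood test (0% of all features did), and none had an unadjusted p under 0.05, by DESeq2 and limma-voom as well, beside 2.17% of all features by edgeR. The median log2 fold change was 0.03 over the 63 genes, with 39 positive, or 61.9% beside 49.3% of all features. The 95% interval lay within a 1.5-fold change for 62 genes, beside 69.3% of all features, and the same 62 lay within a 2-fold change, beside 89.1%. MRPL54 was the exception, with an interval from −0.22 to 1.05. The groups overlapped for all 63 genes, where 0.0543% of all features were higher and 0.0466% lower without overlap. The smallest p belonged to MRPL19, which was lower in 5 of 5 animals (2.88% of all features), at 14.2, 13.5, 15.9, 18.8 and 13.6 CPM at week 12 and 14.2, 10.6, 12.2, 13.5 and 12.5 CPM at week 18, a log2 fold change of −0.27 (SE 0.15, unadjusted p = 0.0908, adjusted p = 1.00). The difference in Z13076 was only −0.01. MRPS18A was also lower in 5 of 5 animals, by 0.05 to 0.22, with a log2 fold change of −0.13 (SE 0.11). MRPL10 and MRPL24 were at −0.14 (SE 0.12) and −0.14 (SE 0.14). On the higher side, MRPL16 was higher in 5 of 5 animals (2.99% of all features), at 63.8, 66.0, 63.3, 55.4 and 69.0 CPM at week 18 against the week 12 values above, with a log2 fold change of 0.17 (SE 0.10, unadjusted p = 0.0925, adjusted p = 1.00). MRPL14, the large subunit protein to which an anti-association factor binds during assembly, was higher in 5 of 5 animals as well, at 0.19 (SE 0.11). MRPL2 and MRPL13 were at 0.15 (SE 0.11) and 0.17 (SE 0.12).

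**Figure D2:**
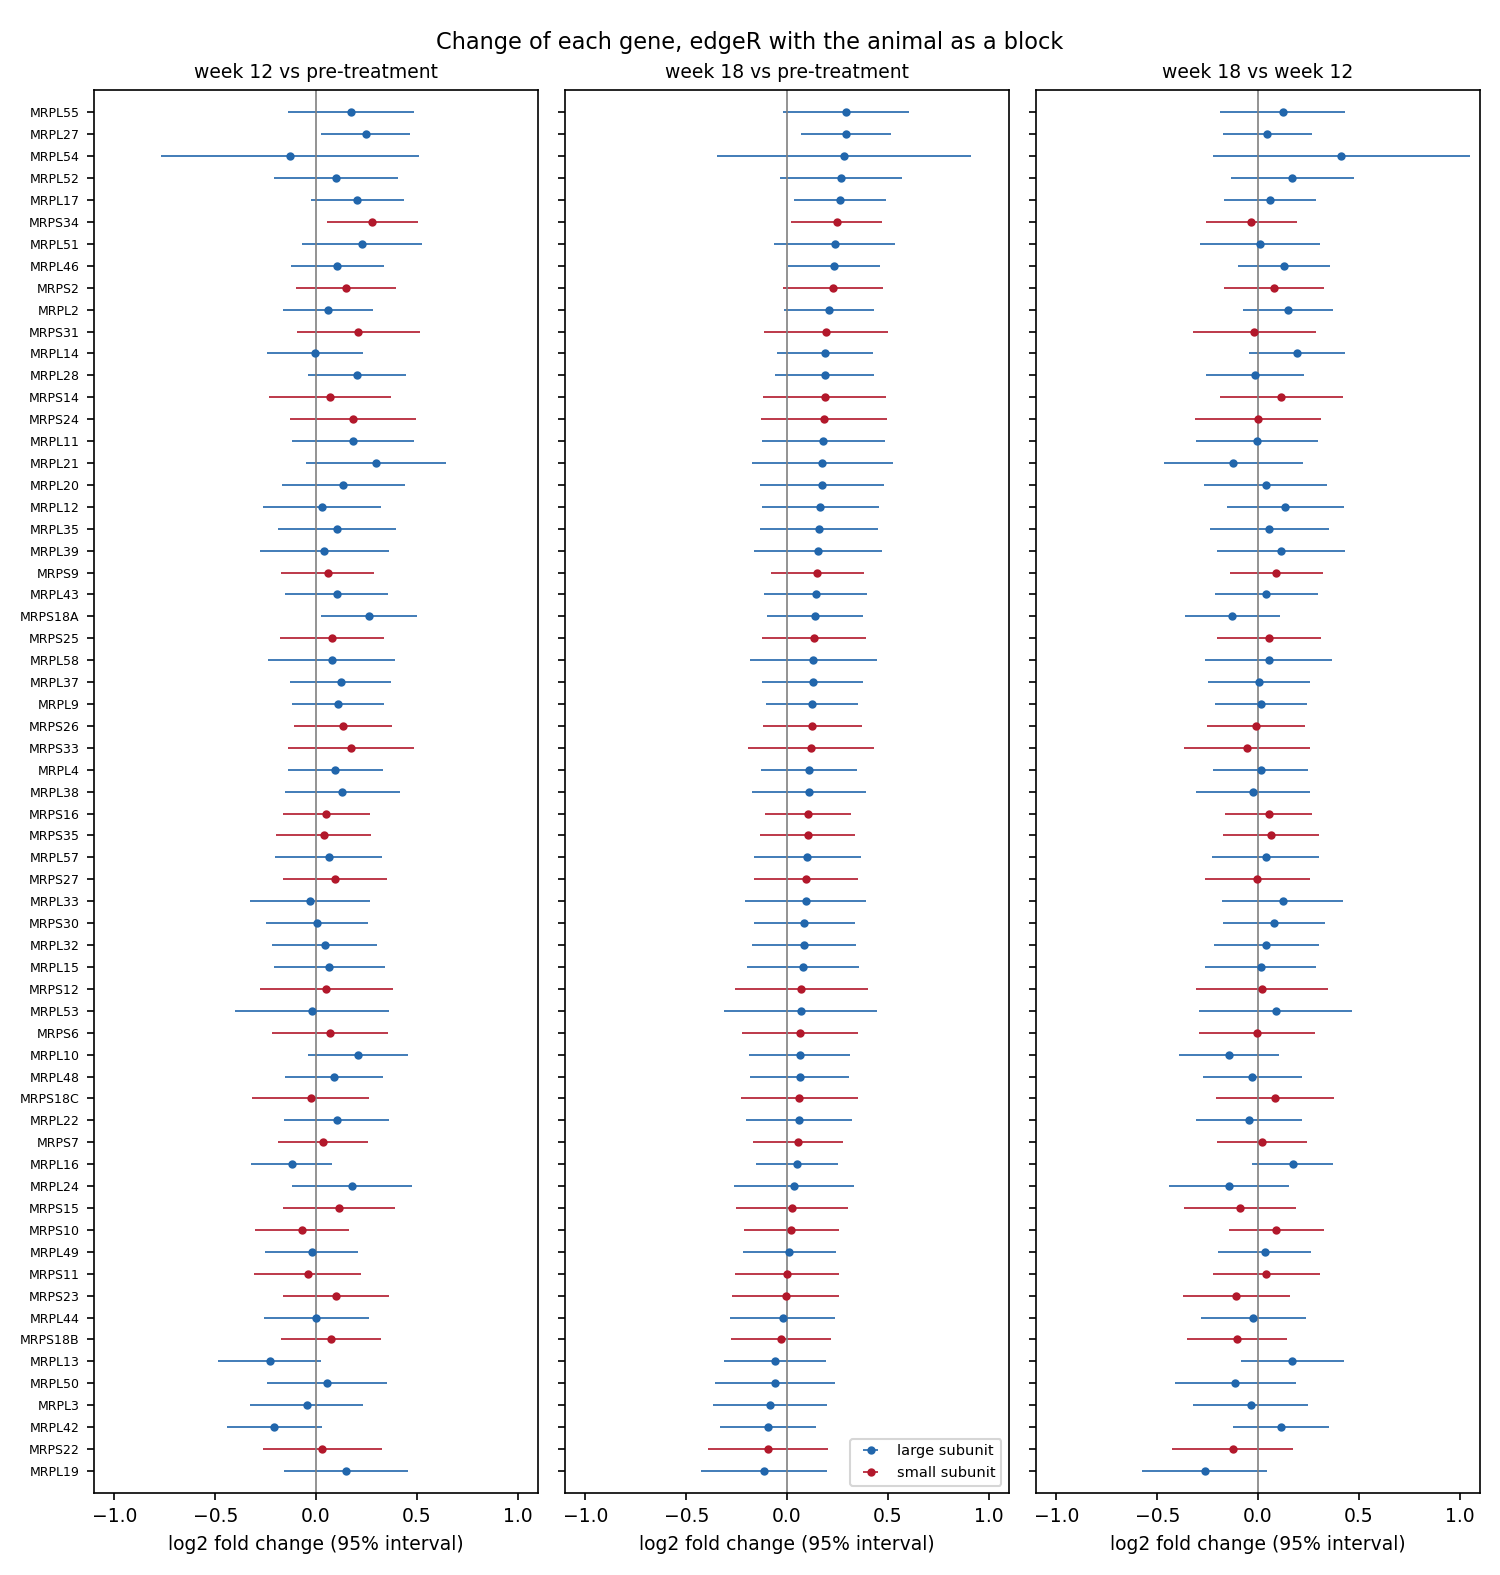
log2 fold change of each of the 63 genes (points) with its 95% interval (bars) in the 3 comparisons, fitted by edgeR with the animal as a block (x axis, log2 scale), with large subunit genes in blue and small subunit genes in red, ordered by the value at week 18 against pre-treatment. Most points lie right of 0 in the first 2 panels, 51 and 54 of 63, and none passed the adjusted test.

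The small medians were averages over animals that differed in direction, and the genes of an animal tended to move together. At week 12, 22 of the 63 genes were higher than before treatment in Z13076 and 20 in Z15228, whereas 53 were higher in Z15303, 39 in Z15339 and 53 in Z15408. Between 47.3% and 51.2% of all features were higher in each of these animals. The median log2 change over the 63 genes was −0.08 in Z13076, −0.08 in Z15228, 0.23 in Z15303, 0.06 in Z15339 and 0.37 in Z15408. At week 18 the numbers higher were 21, 25, 49, 47 and 54 in the same order, and the medians were −0.10, −0.06, 0.21, 0.12 and 0.35. Between week 12 and week 18 the medians of the animals lay between −0.04 and 0.07. Over all features, the median change of an animal stayed between −0.04 and 0.02 in every comparison.

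The division fell along the dates in the library names, which is why the fits were repeated within each set of animals, a choice made after the data had been seen. In the 3 animals with shared dates alone, the median log2 fold change was 0.25 at week 12 and 0.27 at week 18, with 55 and 57 of the 63 genes positive. In the 2 animals with dates of their own, where the medians were negative as given above, 17 and 20 genes were positive. These sets were set apart after the genes had been seen to divide this way, so their values describe the division, and the difference between the sets was not tested. What the dates stand for is not given in the sources used here, and each animal of the smaller set is the only one with its dates, so date and animal cannot be told apart.

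One library weighed heavily in these medians. The pre-treatment library of Z15408 held the lowest value of the 15 libraries for 31 of the 63 genes, or 49.2%, beside 14.6% of all features, and only 6 of the 63 were above their own median there. Its genes lay a median of 0.33 below their own medians on the log2 scale. MRPS12, the counterpart of bacterial S12 in the decoding centre, was at 65.5 CPM in this library and between 93.6 and 136 CPM in the other 14. MRPL38, of the central protuberance, was at 53.9 CPM in it and between 84.0 and 117 CPM elsewhere. MRPL42, MRPL44 and MRPS31 went the other way and were at their highest in this library, with 59.9, 28.9 and 27.7 CPM. The low share did not depend on TMM, since the 63 genes took 0.272% of the raw counts in this library and between 0.295% and 0.344% in the others. The same library had the most features detected, 16556, and the largest TMM factor, 1.11. The summed cytosolic ribosomal protein and respiratory chain genes were also at their lowest of the 15 in it, at 9554 and 4969 CPM. Its summed T-cell and NK-cell markers were the lowest of the 15, at 2093 and 3298 CPM. The sums of the other marker lists, such as B-cell markers at 378 CPM and monocyte markers at 3288 CPM, were neither the lowest nor the highest there. The part of cell composition in the result was not tested. The median changes without this animal are those given with each comparison.

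At the other end, the week 12 library of Z15303 held the highest value for 18 of the 63 genes, or 28.6%, beside 13.7% of all features, and the pre-treatment library of Z15228 for 12, or 19.0%, beside 6.45%. The week 12 and week 18 libraries of Z15303 were also the shallowest, with 5610597 and 5886482 counts, and the part of depth in their high values was not tested. The 3 libraries of Z13076 showed the opposite drift, with 26 of the 63 genes above their own median before treatment, 19 at week 12 and 20 at week 18. Some genes followed the animal rather than the time point. MRPL15 was at 38.3, 46.3 and 42.4 CPM in Z15303 at the 3 time points and at 21.9, 18.7 and 17.3 CPM in Z13076. MRPL54 was at 6.21, 5.85 and 7.84 CPM in Z15339 and 1.11, 1.66 and 3.37 CPM in Z15303, where counts as low as 9 made single values imprecise. These genes were named after their values were seen.

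**Figure D3:**
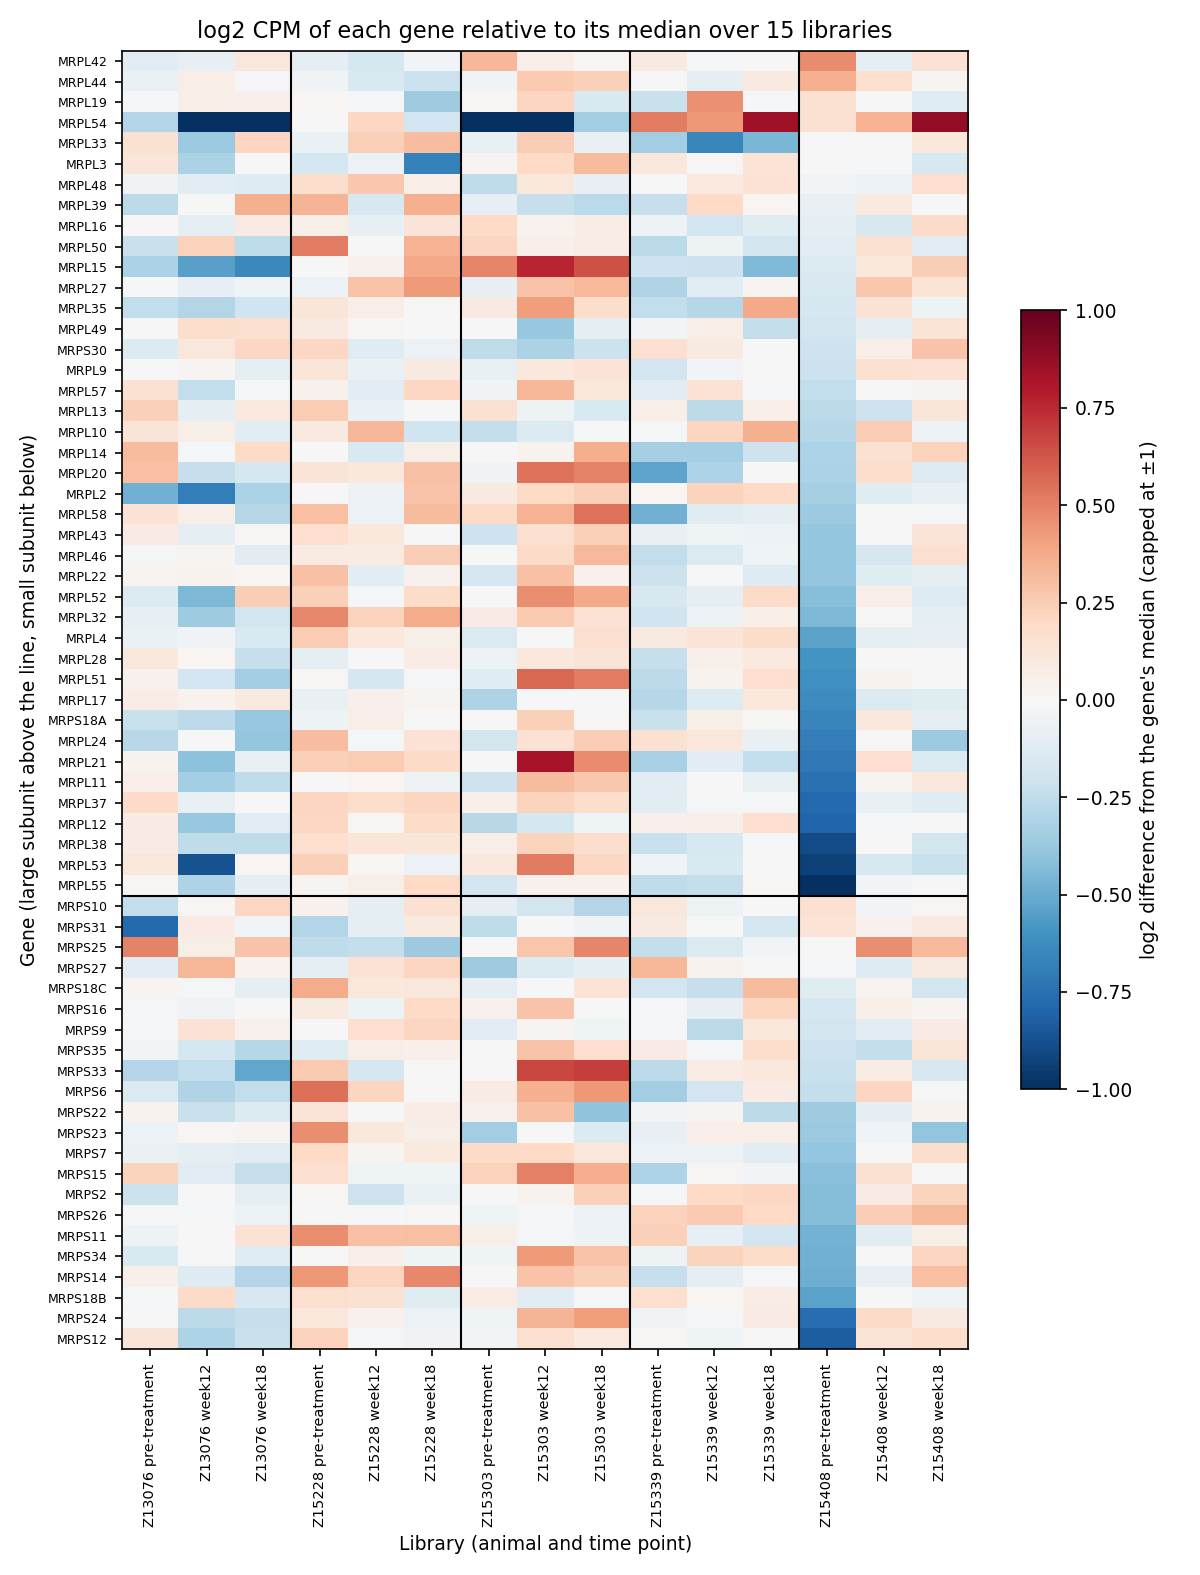
log2 CPM of each of the 63 genes (rows) in each of the 15 libraries (columns), as the difference from the gene's own median over the libraries, in color from −1 (blue) to 1 (red), with larger differences drawn at the limit. Columns are grouped by animal and rows by subunit, ordered within a subunit by the value in the pre-treatment library of Z15408. That library is blue for most rows and holds the lowest value for 31 of the 63 genes.

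The genes of cytosolic ribosomal proteins and of nuclear-encoded respiratory chain subunits, which parallel the mitochondrial ribosome in the cytosol or form complexes with the proteins it makes, were followed in the same animals. At week 12 the summed CPM of the 63 genes was 0.931, 0.951, 1.13, 1.04 and 1.33 times its pre-treatment value in Z13076, Z15228, Z15303, Z15339 and Z15408. For the 51 respiratory chain genes tested the ratios were 0.809, 0.923, 1.27, 1.06 and 1.35, and for the 45 cytosolic ribosomal protein genes tested they were 0.718, 0.928, 1.61, 1.14 and 1.499. All 3 sets were below 1 in the same 2 animals and above 1 in the same 3, and the cytosolic set spanned the widest range. At week 18 the 63 genes stood at 0.942, 0.970, 1.12, 1.08 and 1.34 times their pre-treatment sum, the respiratory chain genes at 0.875, 0.954, 1.22, 1.14 and 1.32, and the cytosolic set at 0.768, 0.851, 1.48, 1.27 and 1.39. The fitted median log2 fold changes were 0.07 at week 12 and 0.08 at week 18 for the respiratory chain genes and 0.15 and 0.13 for the cytosolic set, and none of either passed after adjustment in any comparison.

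**Figure D4:**
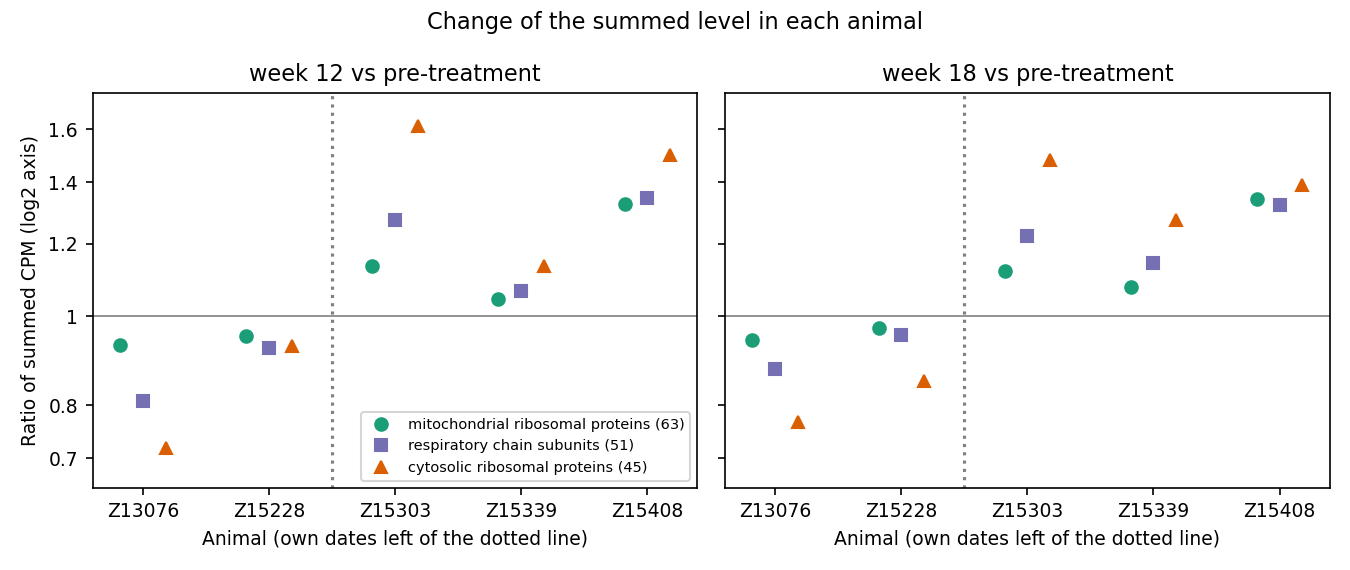
Ratio of the summed CPM at week 12 (left) and week 18 (right) to the pre-treatment value in each animal (y axis, log2 scale) for the 63 mitochondrial ribosomal protein genes, 51 respiratory chain genes and 45 cytosolic ribosomal protein genes. The 2 animals left of the dotted line have dates of their own. All 3 sets lie below 1 in these and above 1 in the other 3 animals.

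Blood cell markers moved between time points too. The summed level of 12 B-cell markers at week 12 was between 0.436 and 0.708 times its pre-treatment value in all 5 animals, from a range of 263 to 1089 CPM before treatment to one of 151 to 552 CPM at week 12 and 194 to 456 CPM at week 18. In bulk samples fewer cells of a type and less RNA per cell cannot be told apart. Summed T-cell markers at week 12 were 1.105, 1.105, 0.994, 0.970 and 1.26 times their pre-treatment level in Z13076, Z15228, Z15303, Z15339 and Z15408, NK-cell markers 1.05, 0.863, 0.877, 1.35 and 1.84 times, and monocyte markers 0.621, 0.872, 0.937, 1.04 and 1.13 times. At week 18 the ratios in the same order were 0.909, 1.07, 1.01, 1.01 and 1.33 for T-cell markers, 0.668, 0.690, 0.896, 1.02 and 1.81 for NK-cell markers and 1.26, 1.45, 0.832, 1.18 and 1.17 for monocyte markers. NK-cell markers at week 18 were thus below their pre-treatment level in Z13076, Z15228 and Z15303, and monocyte markers in Z15303 alone. Platelet markers were 2.34, 0.449, 1.21, 1.34 and 1.01 times their pre-treatment level at week 12 and 1.23, 0.788, 1.47, 1.16 and 0.796 times at week 18. Over the 5 animals and both later times, the ratios ran from 0.311 to 1.29 for plasma cell markers, from 0.516 to 1.68 for neutrophil markers, from 0.627 to 1.16 for dendritic cell markers and from 0.190 to 5.03 for red cell markers. The table held 2 of 6 red cell markers, 6 of 8 neutrophil markers, 5 of 6 plasma cell markers and 8 of 9 monocyte markers. The other lists were complete in it, and all markers found in the table had counts. The part of these cell types in the levels of the mitochondrial ribosomal genes was not tested.

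The genes can also be read by their role within the particle, and none of the lists below had a gene that passed after adjustment. The 3 proteins of the stalk that recruits translation factors and of its base, MRPL10, MRPL11 and MRPL12, were all positive at week 12, from 0.03 to 0.21, and at week 18, from 0.06 to 0.18. Positive values were common, at 81.0% of the 63 genes at week 12 and 85.7% at week 18, so this does not set the stalk apart. MRPL12, which binds the factors directly, also went up in 5 of 5 animals between the later samples, by a fitted 0.13 (SE 0.14). That pattern was seen in 4.76% of the 63 genes and 2.99% of all features. The 5 proteins near the peptidyl transferase centre, MRPL2, MRPL3, MRPL4, MRPL16 and MRPL27, ranged from −0.12 to 0.25 at week 12 and from −0.08 to 0.29 at week 18. Those at the tunnel exit, where the particle is held to the inner membrane, were MRPL17, MRPL22, MRPL24, MRPL39 and MRPL44, with changes from 0.00 to 0.20 at week 12 and from −0.02 to 0.26 at week 18. The 4 central protuberance proteins in the table, MRPL38, MRPL46, MRPL48 and MRPL58, ranged from 0.08 to 0.13 and from 0.06 to 0.23. MRPL58 is a peptidyl-tRNA hydrolase that became part of the ribosome. MRPL48 was at 0.09 (SE 0.12) at week 12.

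The 3 relatives of bacterial S18 take different places, MRPS18B and MRPS18C in the small subunit and MRPS18A in the large. Their log2 fold changes at week 12 were 0.26 for MRPS18A, 0.07 for MRPS18B and −0.03 for MRPS18C, with SEs of 0.11, 0.12 and 0.14, and at week 18 they were 0.14, −0.03 and 0.06. Proteins with a bacterial counterpart can be set beside those without one. At week 12 the median was 0.06 over 13 small subunit genes with a bacterial counterpart and 0.10 over the 9 without, and 0.10 over 23 large subunit genes with a counterpart and 0.07 over the 18 without. MRPS18A was counted among the latter, since bacterial S18 has its place in the small subunit and not in the large. At week 18 the medians were 0.07, 0.12, 0.13 and 0.12 in the same order. MRPS12 was at 0.05 (SE 0.16) at week 12 and 0.07 (SE 0.16) at week 18, and MRPS22 at 0.03 (SE 0.14) at week 12.

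The mitochondrial ribosome also holds proteins whose genes carry other names. Of 5 such genes, all tested, CHCHD1, a small subunit protein, was higher in 5 of 5 animals at week 12 and at week 18, with log2 fold changes of 0.34 (SE 0.12, unadjusted p = 0.0142, adjusted p = 0.798) and 0.28 (SE 0.13, unadjusted p = 0.0398, adjusted p = 0.827). It measured 16.4 ± 3.18 CPM before treatment, 20.9 ± 4.30 CPM at week 12 and 20.0 ± 3.91 CPM at week 18 (SD, n = 5). AURKAIP1, of the small subunit as well, had a log2 fold change of 0.31 (SE 0.12, unadjusted p = 0.0208, adjusted p = 0.811) at week 18 and was higher in 3 animals. Of the 5, 3 were positive at week 12 and 4 at week 18, beside 50.2% and 49% of all features. Their log2 fold changes ran from −0.15 to 0.34 and from −0.11 to 0.31, with medians of 0.15 and 0.11. None of the 5 passed after adjustment in any comparison.

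Genes that act on or with the ribosome had small medians, with single genes on both sides of 0. At week 12 their log2 fold changes ran from −0.35 to 0.48 for translation factors, −0.18 to 0.41 for assembly factors and −0.27 to 0.26 for aminoacyl-tRNA synthetases. At week 18 they ran from −0.08 to 0.38, from −0.14 to 0.46 and from −0.18 to 0.16 in the same order. Of 15 mitochondrial translation factors tested, 10 were positive at week 12 and 11 at week 18, with medians of 0.07 and 0.09, and 2 and 1 had an unadjusted p under 0.05, all positive. The shares over all features at these times were 50.2% and 49% positive, 4.69% and 5.85% with an unadjusted p under 0.05, and 2.23% and 3.04% higher in 5 of 5 animals. PTRH2, a mitochondrial peptidyl-tRNA hydrolase, had the smallest p, with a log2 fold change of 0.48 (SE 0.16, unadjusted p = 0.00829, adjusted p = 0.725) at week 12, when it was higher in 5 of 5 animals, and of 0.38 (SE 0.16) at week 18. Of 26 assembly factors tested, 17 were positive at both times, with medians of 0.13 and 0.09, and 1 and 2 had an unadjusted p under 0.05. TRUB2, a pseudouridine synthase of mitochondrial RNA, led these with 0.25 (SE 0.10, unadjusted p = 0.0244, adjusted p = 0.878) at week 12 and 0.30 (SE 0.10, unadjusted p = 0.00765, adjusted p = 0.584) at week 18, when it was higher in 5 of 5 animals. The 19 mitochondrial aminoacyl-tRNA synthetases tested, which charge tRNAs for mitochondrial translation, had medians of 0.02 and 0.00, with 14 and 10 positive and none with an unadjusted p under 0.05. The smallest p at week 12 was that of SARS2, at 0.26 (SE 0.13). No gene of these lists passed after adjustment in any comparison.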

How the data were processed

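PBMC RNA was amplified by SMART-Seq v4 and made into libraries with Nextera XT. The authors aligned reads with STAR 2.7.9a to the *M. nemestrina* genome and deposited gene counts (quantMode GeneCounts) without normalization, a mode that counts reads placed at a single position. Ribosomal protein genes have many retrocopies in primates, and reads shared with one would not be counted. Gene positions, lengths and sequences were not analysed here. Groups and animals came from the labels.

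Counts were analysed in R 4.3.3 with edgeR 4.0.16 (TMM, filterByExpr with a minimum count of 10, quasi-likelihood test, all 15 libraries, animal as a block, Benjamini-Hochberg over 12880 features, threshold 0.05). The pairing came from the animal labels, since the same 5 animals were sampled each time. Deviations from the group means had a mean correlation of 0.551 between libraries of an animal. Between libraries that differed in both animal and time point it was −0.137. The study's methods name no block, so the unblocked fit, DESeq2 1.42.0 (without filterByExpr) and limma 3.58.1 were alternatives, with other scalings, no filter and each animal left out. Intervals and SEs were derived from the F statistic, with the spread pooled over the 3 time points.

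Genes and lists were chosen with earlier results of these data known. Named genes are the 4 with the smallest p in each direction and comparison, examples from role lists and, as stated, genes picked after their values were seen. The scripts were tested on simulated data. Each animal and time point has 1 library.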

Additional observations from a re-analysis of the deposited data

Results flagged for a closer look

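For the summed levels and 28 named genes, the 5 animals of each time point were examined for a value far from the other 4, with the gap to its nearest neighbour set against the whole range (critical value 0.71). Of 96 such groups 2 stood out, and both were single genes. The groups share libraries and the sums hold the same genes, so this number is not set against a rate given by chance. The low pre-treatment sum of Z15408 was examined in this way and did not stand out. MRPL39, a large subunit protein near the tunnel exit, was at 24.8 CPM in Z15228 before treatment and between 16.3 and 18.5 CPM in the other 4 animals. MRPL44, its neighbour in the particle and a relative of ribonuclease III, was at 28.9 CPM in Z15408 before treatment and between 21.6 and 22.6 CPM in the others. That library was the one in which 31 of the 63 genes had their lowest value, so MRPL44 stood out there in the opposite direction.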

How the results depend on the processing

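None of the 63 genes passed after adjustment under any setting tried. Without the replicate block the median log2 fold changes were 0.08, 0.10 and 0.03 at week 12, at week 18 and between them. In the same order 1, 1 and 0 genes had an unadjusted p under 0.05, beside 1.61%, 1.69% and 0.505% of all features. The block changed no adjusted call of the 63 genes. Leaving out each animal in turn, the medians ranged from 0.01 to 0.15, from 0.04 to 0.17 and from 0.01 to 0.03. The genes with an unadjusted p under 0.05 numbered 0 to 11 at week 12 and at week 18. There were 11 at both without Z13076 (9.69% and 10.6% of all features) and 0 at both without Z15339 (3.40% and 3.95% of all features). The fits within date sets were chosen after these same genes had been seen to divide that way. Their p-values were shaped by that choice, so the counts below describe the division and support no conclusion. In the 3 animals with shared dates, edgeR gave 23 genes (36.5%) at week 12 and 27 (42.9%) at week 18 with an unadjusted p under 0.05. The shares over all features were 16.3% and 17.5%, and the smallest adjusted p among the genes was 0.072 at both times. In the 2 with dates of their own the numbers were 3 (4.76%, beside 8.54% of all features) and 2 (3.175%, beside 7.01%). In the 2 animals with dates of their own the median turned to −0.112 at week 12 and −0.082 at week 18, MRPL42 at week 18 to 0.142, MRPS10 at week 12 to 0.0559 and MRPS34 at week 18 to −0.00923. MRPL3 at week 18 turned to 0.0671 in the animals with shared dates and to 0.0155 without Z15228. The cause was not tested. The other 76 summary values and 331 values of single genes kept their direction and their side of the threshold. Over all features, the count passing after adjustment (1, 1 and 0 as reported) ranged from 0 to 83 at week 12, from 0 to 136 at week 18 and from 0 to 8 between them, highest with no filter on low counts except in the third, where DESeq2's test gave 8. Depth limited MRPL54 most, at 9 to 73 counts per library.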
